A study of Saccharomyces cerevisiae with 12 samples.

Results

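The interior of budding yeast chromosome VII was followed through S phase in wild-type cells and in an eco1-W216G mutant. The interior comprised the 1000-bp rows of the deposited table whose centre lies more than 30 kb from either end of the chromosome, 1031 rows in all. After 24 rows with a ratio of exactly 0 in any of the 8 ratio columns had been left out, 1007 rows remained, of 12165 in the table and of 10861 in the interiors of the 16 nuclear chromosomes. They run from position 30001 to 1061000 of the 1090940-bp chromosome (sacCer3), 467 of them left and 540 right of the centromere. Rows were chosen by position alone, and each column was centred on the median of these rows.

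The strains compared were w303a, labelled a wild type control, and JG2087, labelled as the eco1-W216G mutant. Any further alleles of JG2087 are not given in the sources used here. All cultures grew in YPD, were held in G1 for 2 h with α-factor, a mating pheromone, washed in medium with protease and sampled 0, 20 and 40 min after that release. Each strain and time has 2 libraries of genomic DNA, 12 in all, and nothing in the labels says that the 2 came from separate cultures, so p-values measure only the spread between these libraries. The 8 ratio columns give, on a log2 scale, the scaled reads of each 20- or 40-min library over those of the 0-min library of the same strain and replicate, so the 20- and 40-min columns of a replicate share a denominator.

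A chromosome is copied from many replication origins that fire at different times, and forks from neighbouring origins meet between them. In a population passing through S phase, DNA that is copied early is therefore over-represented against G1 DNA, giving peaks near early origins and troughs where copying is late, and this contrast fades once copying is complete. Eco1 is an acetyltransferase whose target is Smc3, a part of the cohesin ring, and its action as DNA is copied makes sister chromatid cohesion stable, and the human counterpart of the yeast allele is known from Roberts syndrome. No origin annotation was used here, so positions are named by the gene nearest to them, and a gene name marks a place and not an effect on that gene.

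Depth ranged from 5293237 to 10362815 mapped reads per library, and the median row of the interior held 462 to 897 reads. By counting error alone the log2 ratio then has an SD of 0.069 to 0.089 in a typical row, and of 0.022 to 0.028 in a 10-kb window. Profiles were therefore read in 10-kb windows of at least 5 rows, 101 on chromosome VII and 1102 over all chromosome interiors. Of the 24 rows left out, 22 held no read in any library and all held under 10, and most lie in Ty retrotransposon genes such as YGR027W-B, YGR038C-B and YGR161W-B. Rows with few reads also remained: a kept row held 0 to 1411 reads in a library. Against the median of all interiors, chromosome VII as a whole stood between -0.017 and -0.00041 in the 8 columns.

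The 2 columns of eco1 at 40 min did not resemble each other. Over the 101 windows their Pearson correlation was -0.27, and the median of this correlation over the other chromosomes was -0.31. Wild-type replicates correlated at 0.66 at 20 min and 0.54 at 40 min, and eco1 replicates at 0.75 at 20 min. Replicate 2 of eco1 at 40 min followed the eco1 20-min columns, at 0.68 and 0.70, the second of which shares its 0-min library. Replicate 1 followed the wild-type 40-min columns, at 0.38 and 0.47, and correlated with the eco1 20-min columns at -0.12 and -0.23. Counts of windows, peaks and amplitudes called at 20 min, at 40 min and over time are given below with these columns and without 1 or both of them. These correlations describe windows of the same libraries and carry no test.

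**Figure D1:**
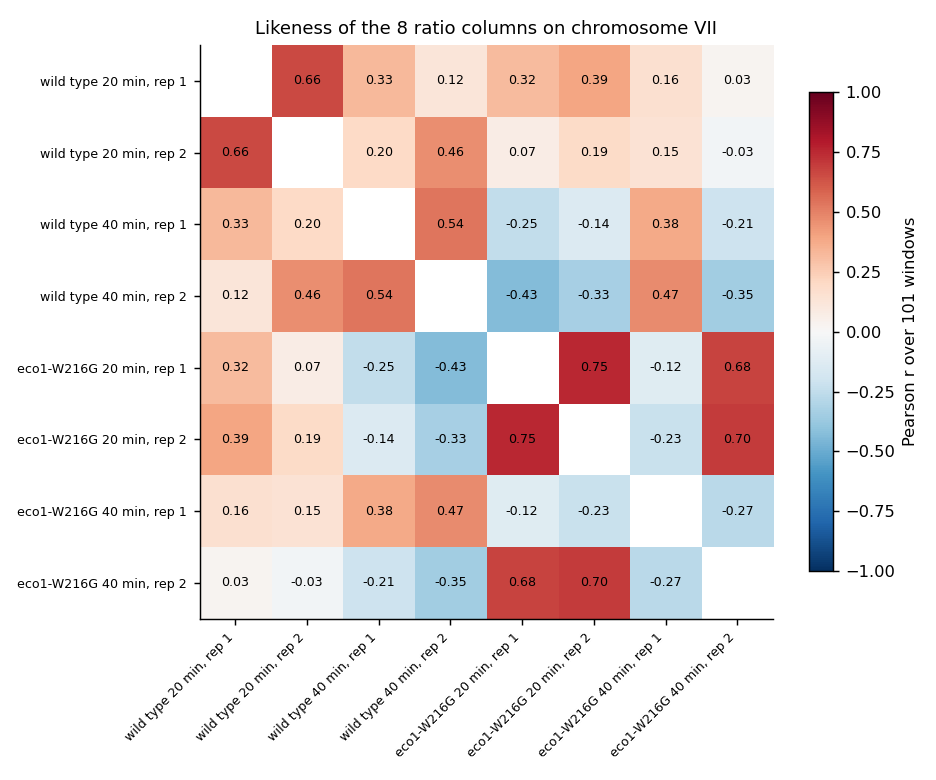
Pearson correlation between the 8 ratio columns over the 101 windows of chromosome VII, with strain, time and replicate on both axes and colour running from -1 to 1. The eco1 40-min replicates correlate at -0.27, replicate 2 lying with the eco1 20-min columns and replicate 1 with the wild-type 40-min columns.

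The relief of the profile was low in every column. The SD over windows was 0.061 and 0.080 in wild type and 0.058 and 0.060 in eco1 at 20 min. At 40 min it was 0.047 and 0.068 in wild type and 0.044 and 0.070 in eco1. The eco1 mean was lower by 0.012 at 20 min (two-sided exact permutation test, p = 0.33, the smallest that 2 against 2 can give, all columns of eco1 below both of wild type) and differed by -0.00077 at 40 min, where the columns interleave (exact p = 1). Every window SD exceeded the counting SD of a window, by the least in eco1 at 40 min replicate 1 (0.044 against 0.022). In the profiles along the chromosome the wild-type 20-min replicates rise together at a few narrow places, and both eco1 20-min replicates have their lowest window just right of the centromere.

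**Figure D2:**
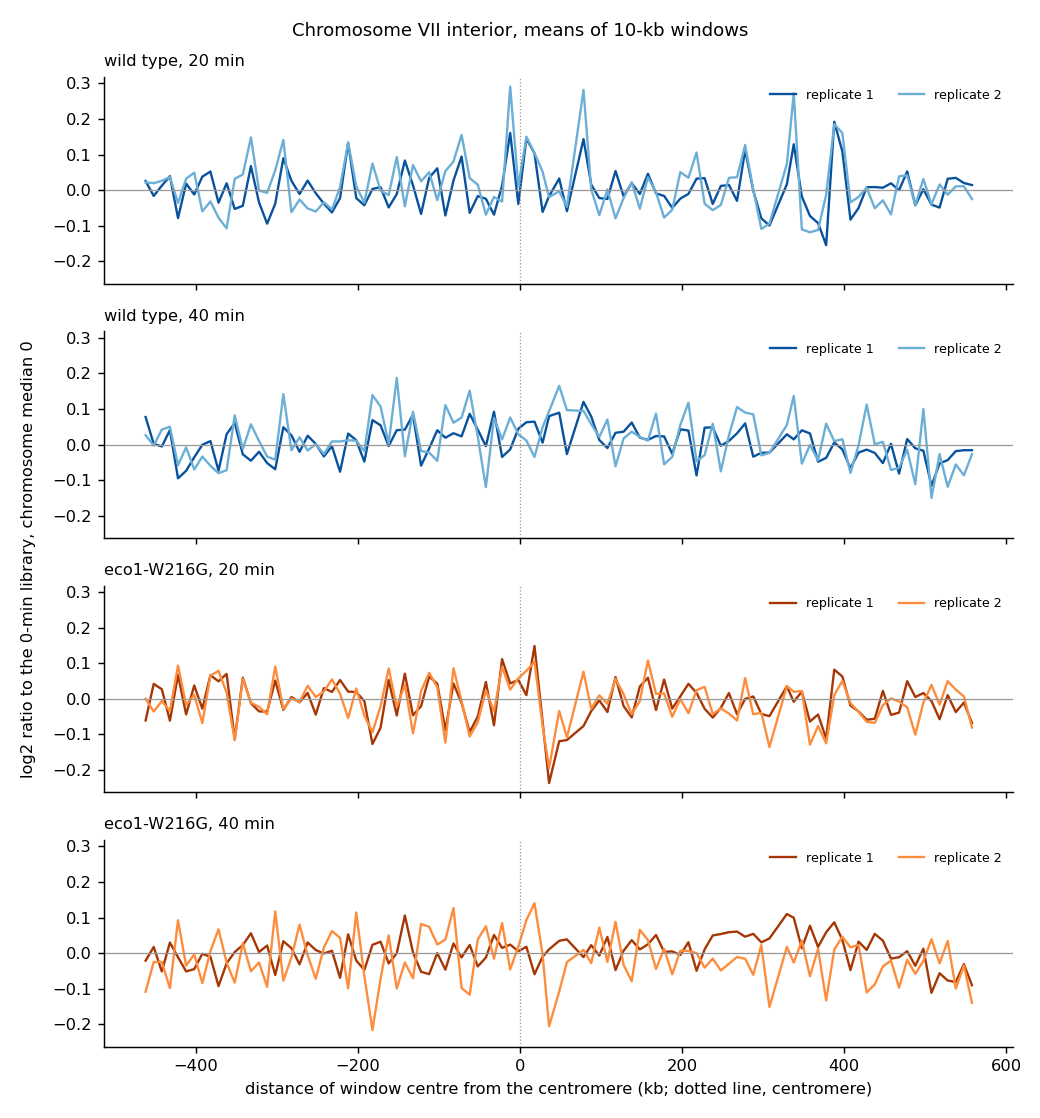
Mean log2 ratio to the 0-min library in 10-kb windows (chromosome median 0) against the distance of the window from the centromere in kb, 1 panel per strain and time, 1 line per replicate. Wild type at 20 min reaches 0.19 and 0.29 at its highest window, eco1 at 20 min falls to -0.24 and -0.19 at its lowest, and the 2 lines for eco1 at 40 min run against each other.

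At 20 min in wild type, 10 windows stood above the chromosome median and 2 below it (limma, Benjamini-Hochberg adjusted over all 1102 windows, threshold 0.05). Over all interiors 8.89% of windows were called, 7.8% higher and 1.09% lower, and 20.1% had an unadjusted p under 0.05, against 19 windows of chromosome VII, so chromosome VII was close to the background in both directions. The highest window by its fitted mean, named for YGL006W-A (positions 480001 to 490000), read 0.16 and 0.29 in the wild-type replicates (mean 0.23 ± 0.092, SD, n = 2, limma adjusted p = 0.00188). It lies left of the centromere and holds nearly all of PMA1, the gene of the plasma membrane proton pump. The window of KSS1, a MAP kinase of filamentous growth, read 0.14 and 0.28, and that of PUS6, a pseudouridine synthase, 0.13 and 0.27. In all 3 of these, replicate 2 was the higher. The KSS1 window (571001 to 580000) borders rows left out at YGR038C-A, and the row from 573001 to 574000 within it was also left out.

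Other windows agreed more closely between the 2 libraries. PDX1 (880001 to 890000), which encodes a subunit of the pyruvate dehydrogenase complex, read 0.19 and 0.19 (limma adjusted p = 0.00161). TFG2, a subunit of the transcription factor TFIIF beside the centromere, read 0.15 and 0.15. COQ8, needed to make ubiquinone, read 0.13 and 0.13. The neighbour of PDX1, YPP1, read 0.11 and 0.16, so a stretch of 20 kb on the right arm was raised in both replicates. YGL039W read 0.094 and 0.16, SKN1, a gene of cell wall glucan synthesis, 0.11 and 0.13, and the non-coding gene YNCG0008W 0.090 and 0.14. The 2 lower windows were UBR1, the ubiquitin ligase of the N-degron pathway, at -0.092 and -0.11, and RSR1, a GTPase of bud site selection, at -0.079 and -0.11.

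The 10 high windows lay on both arms, 4 left and 6 right. A tRNA gene lay in 4 of them, against 25 of all 101 windows, none held a ribosomal protein gene or a Ty gene, and their median coding share was 65.0% against 74.0%. The 0-min reads per row of these windows were 0.957 times the chromosome median. Leaving out replicate 1 of wild type at 20 min left 5 calls and leaving out replicate 2 left 1, both on a lone sample assumed to vary like the other groups. Without either eco1 40-min column, which enters the shared spread, 12 windows were higher and 4 lower (10.3% and 2.18% over all interiors). PDX1 was called in all 8 fits that leave out 1 library.

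In every one of the 10 high windows both eco1 20-min columns read below both wild-type columns. That ordering was met by 35 of the 101 windows of chromosome VII and by 31.3% over all interiors, and since the 10 were chosen for height in wild type it is given as a description only. In eco1 the window of YGL006W-A read 0.043 and 0.026, PDX1 0.082 and 0.011, TFG2 0.011 and 0.079, and YPP1 0.063 and 0.051, all above 0. YNCG0008W read -0.031 and -0.029 and YGL039W -0.012 and -0.0062, both below 0 in both replicates. KSS1 split, at -0.076 and 0.076. In wild type at 40 min, 9 of the 10 read nearer to the median in both replicates, also only a description since they were chosen for height at 20 min, the exception being YNCG0008W, at 0.049 and 0.14. At that time both eco1 columns lay below both wild-type columns in 4 of the 10, above them in 2 (PDX1 and YPP1) and between or across them in 4.

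**Figure D3:**
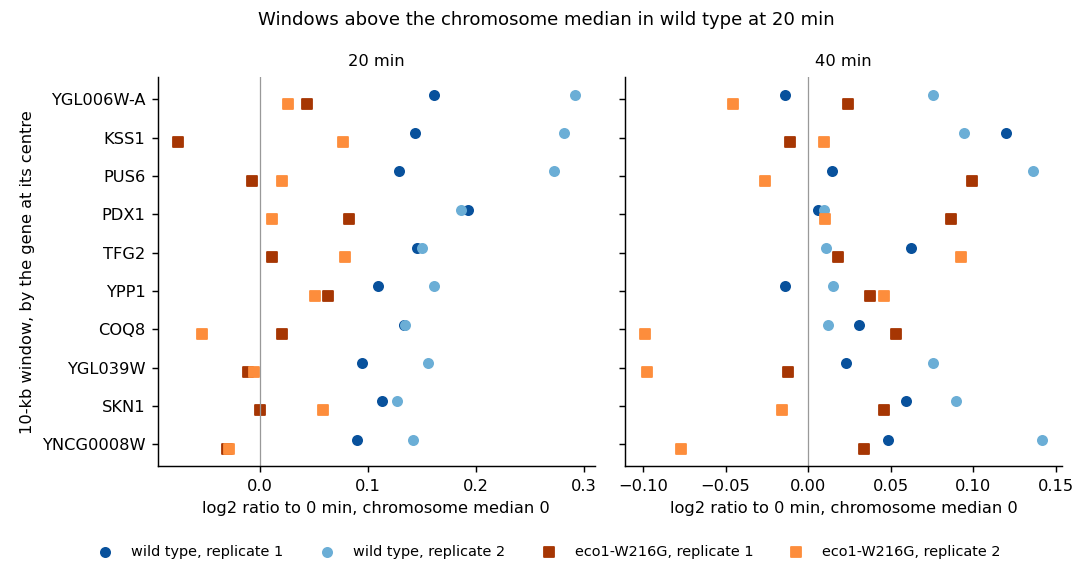
Log2 ratio to the 0-min library (x axis, chromosome median 0) at 20 and 40 min for the 10 windows above the chromosome median in wild type at 20 min, named by the gene at their centre. Circles are wild-type and squares eco1 libraries. At 20 min the wild-type circles lie to the right of the squares in every row, and at 40 min in 4 rows.

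No window of chromosome VII was called against the chromosome median in the other 3 groups. In wild type at 40 min 0 of 101 passed (0% of all windows) and 21 had an unadjusted p under 0.05 in limma (22.9% of all windows). In eco1 at 20 min 0 passed (0.0907% of all windows) and 25 had an unadjusted p under 0.05 (18.6%). In eco1 at 40 min 0 passed (0.0907%) and 7 did so unadjusted (4.63%). The first 2 counts rested on the spread of the eco1 40-min columns. Without them 8 windows passed in wild type at 40 min, 7 of them higher (7.26% higher and 2.63% lower over all interiors), and 9 in eco1 at 20 min, 3 higher and 6 lower (2.36% and 4.72% of all windows). The lowest window of the chromosome in eco1 at 20 min was that of YGR026W, 6 rows from 530001 to 536000 that border the Ty rows left out, at -0.24 and -0.19, against -0.017 and -0.020 in wild type.

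No window passed the test of the change over time. With the 40-min ratio taken against the 20-min ratio of the same replicate, so that the shared 0-min library cancels, 0 of 101 windows passed in either strain and 0% did so over all 1102 (limma). In wild type 15 windows had an unadjusted p under 0.05 (15.2% over all interiors) and in eco1 6 did (4.08%). These counts too rested on the spread between the eco1 pairs. With either eco1 40-min library left out, 28 windows passed in wild type, 13 higher and 15 lower at 40 min (22.2% over all interiors), on 1 residual degree of freedom, that of the wild-type pairs. In eco1, where a lone pair is then assumed to vary like wild type, 1 passed without replicate 1 (2.18%) and 19 without replicate 2 (14.8%). With all 8 columns the largest wild-type differences were at YGL006W-A, which read 0.19 lower at 40 min (standard error 0.031, limma adjusted p = 0.0524), and PDX1, 0.18 lower (standard error 0.029, the same adjusted p). CLD1, a phospholipase gene for cardiolipin, followed at -0.14 and YPP1 at -0.13, both lower in each replicate. Higher at 40 min was HOP2, a gene of meiotic pairing, at -0.064 and 0.034 at 20 min and 0.086 and 0.15 at 40 min. BIL2 read -0.069 and -0.019, then 0.092 and 0.075. OKP1, a kinetochore gene, read -0.072 and -0.12, then 0.031 and -0.0013.

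In eco1 the largest difference was at TIM21, a gene of mitochondrial protein import, which read -0.12 and -0.11 at 20 min and 0.039 and -0.025 at 40 min. OKP1 read -0.064 and -0.13 at 20 min and 0.077 and -0.065 at 40 min. SLH1, at the right end of the interior, read -0.037 and 0.026 at 20 min and -0.081 and -0.10 at 40 min. Since the 40-min replicates of eco1 oppose each other, these are means over unlike columns. The change over time did not differ between strains at any window after adjustment (0 of 101, limma strain-by-time contrast, with 2 under an unadjusted p of 0.05 and 1.91% over all interiors), nor did it with either eco1 40-min library left out (0 of 101).

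Which parts of the chromosome differed between eco1 and wild type was asked next, at each time. No window passed at either time over the 8 columns (0 of 101 at 20 min, 0.454% over all interiors, and 0 of 101 at 40 min, 0.0907%, limma), while 20 had an unadjusted p under 0.05 at 20 min (16.4%) and 13 at 40 min (12.5%). At 20 min the largest lower readings in eco1 were KSS1 (-0.21 ± 0.055, standard error, limma adjusted p = 0.118), YGR026W (-0.20), PUS6 (-0.19), YGL006W-A (-0.19 ± 0.049, standard error, limma adjusted p = 0.118) and COQ8 (-0.15). The largest higher ones were YNCG0002C (0.14), MDS3 (0.12), SCL1, the gene of a proteasome core subunit (0.11), SPC105, a kinetochore gene (0.10), and SNT2 (0.095). Columns did not overlap at any of these 10 windows, as at 35 lower and 24 higher windows of the 101 (31.3% and 22.2% over all interiors).

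Without the eco1 40-min columns, which take no part in this difference but enter its error, 11 windows passed at 20 min, 9 lower and 2 higher in eco1 (6.44% and 1.27% over all interiors). The 9 were YNCG0008W, COQ8, LSG1, YGL039W, YGL006W-A, YGR026W, KSS1, PUS6 and PDX1, and the 2 were YNCG0002C and MDS3. In that fit YGR026W differed by -0.20 ± 0.031 (standard error, limma adjusted p = 0.00647) and COQ8 by -0.15 ± 0.034 (standard error, limma adjusted p = 0.0245). LSG1, a GTPase of ribosome assembly, read 0.0035 and 0.075 in wild type and -0.13 and -0.094 in eco1. Of the 9 lower windows, 7 were among the 10 that stand above the median in wild type. Both lists use the same wild-type 20-min columns, so this overlap is a description only. YNCG0002C read -0.078 and -0.036 in wild type and 0.067 and 0.094 in eco1, and MDS3, a TOR signalling gene, -0.035 and -0.077 against 0.049 and 0.079.

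The 0-min libraries, which are the denominators, moved with these differences. At 0 min the strains differed by -0.094 (ALK1) to 0.091 (YGR026W) across windows, with an SD of 0.039. The difference between replicates had an SD of 0.038 in wild type and 0.034 in eco1. These SDs are not directly comparable, since the strain difference is between means of 2 libraries, which vary less than the single libraries of a replicate difference. Over the 101 windows the 0-min difference correlated at -0.55 with the strain difference at 20 min and at -0.71 with that at 40 min. The same 0-min libraries enter both quantities, and 10 of the 11 windows had the opposite sign at 0 min. With all 20-min reads set over the wild-type 0-min libraries instead, the 11 windows had the same sign and sizes of 0.067 to 0.17. YGR026W then read -0.10 in place of -0.20, KSS1 -0.14 in place of -0.21 and YGL006W-A -0.15 in place of -0.19. That choice of denominator was added after seeing the data, and no window passed under it with all 8 columns.

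At 40 min the difference between strains turned on which eco1 replicate was kept. With both, the largest lower readings were LSG1 (-0.20), YGR026W (-0.18), HOP2 (-0.17), SNR46, a small nucleolar RNA gene (-0.16), and MF(ALPHA)2, an α-factor gene (-0.16). The largest higher ones with the same sign in both replicate-numbered differences were YNCG0002C (0.12) and GND2, a pentose phosphate gene (0.097). RAD54, a recombination gene (0.084), UBR1 (0.061) and SCL1 (0.060) followed. ALK1 (0.094) and FOL2 (0.0601) also read higher on average, without the same sign in both. Without replicate 1 of eco1 at 40 min, 18 windows passed, 14 lower and 4 higher (10.9% and 3.9% over all interiors). Without replicate 2 none did (0.0907% lower and 0% higher over all interiors). In both fits the eco1 library that remains is a lone sample, assumed to vary like the other groups. LSG1 shows the split, at 0.069 and 0.14 in wild type against 0.024 and -0.22 in eco1. The value at RAD54 went from 0.17 without replicate 1 to -0.0052 without replicate 2.

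Peaks and troughs were taken from the mean of the 4 columns of 20 min, weighting the strains equally, as turning points of the running mean over 5 kb whose prominence reached 0.1. This gave 22 peaks and 22 troughs on chromosome VII, of 189 and 188 over all interiors, with peaks 7 to 87 kb apart (median 46 kb), 10 of them on the left arm and 12 on the right. Their heights at 20 min follow from that choice and are given as a description. Above 0 in all 4 columns were 14 of the 22 peaks, and below 0 in all 4 were 12 of the 22 troughs.

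The highest peak in wild type lay in SKI6, the gene of an exosome subunit, at position 889501 between the windows of PDX1 and YPP1. It read 0.29 and 0.34 in wild type and 0.11 and 0.067 in eco1. SEC9, a secretory t-SNARE gene right of the centromere at 509501, read 0.22 and 0.31 in wild type and 0.14 and 0.14 in eco1, which made it the highest peak by the mean of the 4 columns. PMA1 read 0.10 and 0.34 in wild type and 0.092 and 0.072 in eco1. LSO2 read 0.14 and 0.26 against 0.060 and 0.084, HEM2, a heme synthesis gene, 0.16 and 0.24 against 0.036 and 0.056, and COQ8 0.16 and 0.17 against 0.080 and 0.023. At these 6 peaks both eco1 columns read above 0 and below both wild-type columns, but they were picked for height in wild type, and 52.4% of all peaks had eco1 wholly below.

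Of the other peaks, PYC1, the pyruvate carboxylase gene, had a mean of 0.081 in wild type and 0.14 in eco1, CLD1 0.16 and 0.040, and CLB6, the S-phase cyclin gene, 0.094 and 0.098. The non-coding gene YNCG0034W had 0.13 and 0.061, GUP1 0.063 and 0.12, NNF2 0.11 and 0.061, ARI1 0.084 and 0.076, and ATG1, the autophagy kinase gene, 0.10 and 0.050. Lower peaks were SHE10 (0.031 and 0.11), AZR1 (0.0035 and 0.091), NOP19 (0.034 and 0.060), KEX1 (0.038 and 0.056), PFK1 (0.061 and 0.028), PIB2 (-0.032 and 0.069) and GSC2 (0.0013 and 0.019). The peak at YGR038C-A read 0.23 and 0.31 in wild type and -0.049 and 0.20 in eco1. Its position, 570501, lies in a row that was left out, so its level comes from rows on either side. CLB6 and CLD1 are 7 kb apart with a Ty gene, YGR109W-B, between them, and no row there was left out. The 0-min reads were 0.57 and 0.59 times the chromosome median at CLB6 and CLD1, and 0.25 times at the trough in YGR109W-B. Clear of Ty genes and of left-out rows were 19 peaks.

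The deepest trough, at YGR027W-A, also borders Ty rows and read -0.0078 and -0.12 in wild type and -0.39 and -0.24 in eco1. Troughs clear of Ty rows were led by CHO2, a phospholipid methyltransferase gene, at -0.082 and -0.18 in wild type and -0.10 and -0.18 in eco1. RNR4, the gene of a ribonucleotide reductase subunit, read -0.15 and -0.12 against -0.069 and -0.19. At both of these the strains overlapped. CDC55, a phosphatase subunit gene, read -0.021 and 0.040 in wild type against -0.20 and -0.24 in eco1, and RPL24A, a ribosomal protein gene, -0.023 and 0.029 against -0.19 and -0.20. MGA1 had means of -0.12 in wild type and -0.092 in eco1, NUP49, a nuclear pore gene, -0.11 and -0.092, ESP1, the separase gene, -0.068 and -0.11, MVB12 -0.057 and -0.12, and YGR035W-A, beside Ty rows, -0.033 and -0.18.

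The strain difference, which the choice of positions did not use, passed at 0 of 44 peaks and troughs at 20 min and at 0 of 44 at 40 min (limma over 377 positions, 0% called at either time). Unadjusted p under 0.05 was reached by 2 peaks and 2 troughs at 20 min (21.8% of all positions) and by 6 positions at 40 min (11.7%). SKI6 came nearest, at -0.23 (standard error 0.054, limma adjusted p = 0.126). Without the eco1 40-min columns 6 positions passed at 20 min, each lower in eco1 (22% over all interiors): the peaks SKI6 and HEM2 and the troughs TAN1, CDC55, RPL24A and YGR027W-A. In that fit SKI6 had a limma adjusted p of 0.00436. The 0-min reads at TAN1, CDC55, RPL24A and YGR027W-A were 0.81, 0.79, 0.79 and 0.63 times the chromosome median. At SKI6 and HEM2 they were 1.08 and 1.01 times that median. Whether low coverage bears on these differences was not tested. At 40 min 11 passed without replicate 1 of eco1, 10 of them lower (24.7% over all interiors), and none without replicate 2, in each case with a lone eco1 library assumed to vary like the other groups.

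At 20 min the eco1 columns lay wholly below the wild-type columns at 10 of the 22 peaks (52.4% over all interiors) and wholly above at 4 (21.7%). They lay wholly below at 10 of the 22 troughs (47.9%) and wholly above at 1 (7.98%). Each of these shares is close to that over all chromosomes. By column the median of the 22 peaks was 0.10 and 0.13 in wild type and 0.086 and 0.069 in eco1 at 20 min, and that of the troughs -0.052 and -0.046 against -0.079 and -0.14. At 40 min the same troughs had medians of 0.0086 and 0.061 in wild type, level with the peaks in replicate 1 (0.010) and above them in replicate 2 (0.023). In eco1 at 40 min replicate 1 followed that pattern, with peaks at 0.0066 and troughs at 0.054, while replicate 2 kept peaks at 0.043 and troughs at -0.10.

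**Figure D4:**
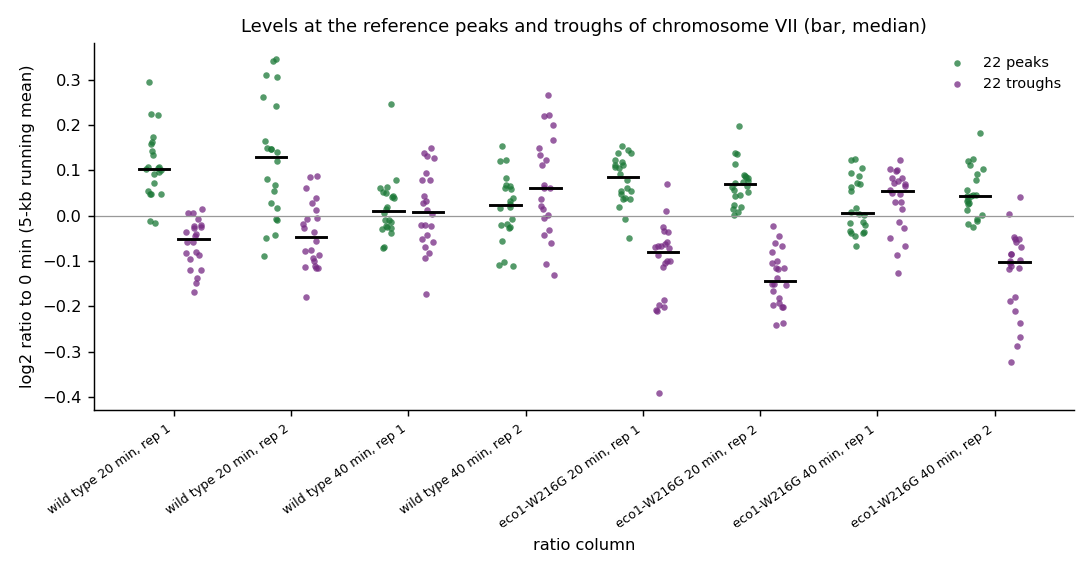
Level of the 22 reference peaks and 22 reference troughs of chromosome VII (y axis, log2 ratio to 0 min, 5-kb running mean) in each of the 8 ratio columns, with bars at the medians. Peaks stand above troughs in all 4 columns of 20 min, from which they were chosen, and in eco1 at 40 min replicate 2 (0.043 against -0.10). In wild type at 40 min their medians were level in replicate 1 (0.010 against 0.0086) and the troughs were higher in replicate 2 (0.023 against 0.061).

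The amplitude of a peak, its height over the mean of the troughs on either side, does not depend on centring and could be taken for 21 peaks. Its median by column was 0.18 and 0.17 in wild type and 0.17 and 0.21 in eco1 at 20 min, and at 40 min 0.0096 and -0.053 in wild type against -0.024 and 0.17 in eco1. The median difference between eco1 and wild type was 0.0070 at 20 min. At 40 min it was 0.12 with both eco1 replicates, 0.21 without replicate 1 and 0.034 without replicate 2. With all 8 columns 0 of 21 amplitudes passed at either time (0% of 172 over all interiors, limma), with 1 at each time under an unadjusted p of 0.05 (15.7% and 9.88%). At 20 min 9 of the 21 were lower in eco1, and columns did not overlap at 8 that were higher (36.6% over all interiors) and 2 that were lower (31.4%). SKI6 had amplitudes of 0.41 and 0.41 in wild type and 0.18 and 0.24 in eco1 and was 1 of the 2.

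For 3 amplitudes the test at 20 min was passed without the eco1 40-min columns, SHE10 (0.21) and PIB2 (0.25) higher and SKI6 (-0.20) lower in eco1 (8.72% and 7.56% over all interiors). At 40 min 10 of 21 were higher in eco1 without replicate 1 (39% over all interiors), among them SEC9, where wild type read -0.053 and -0.14 and eco1 replicate 2 read 0.32. None passed without replicate 2 of eco1, and in both fits a lone eco1 library is assumed to vary like the other groups. In eco1 at 40 min the SEC9 amplitude was -0.088 in replicate 1, between the wild-type replicates. The trough on the right of SEC9 is YGR027W-A, which borders Ty rows. It read 0.13 and 0.11 in wild type and 0.014 and -0.29 in eco1 at 40 min.

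Peaks were also called in each column on its own. At 20 min there were 32 and 47 in wild type and 55 and 51 in eco1, and at 40 min 35 and 65 in wild type and 43 and 69 in eco1. A peak needs a prominence of 0.1 in the 5-kb running mean, whose counting SD is below the 0.069 to 0.089 of a single row. In simulated rows with the spread between the wild-type 20-min replicates, the search also returned peaks from noise. These numbers are therefore no counts of origins, and no difference in number between columns is drawn from them. Matching within 10 kb says little at this density: of the 32 peaks of wild-type replicate 1 at 20 min, 93.8% had a peak of replicate 2 within 10 kb, while 81.9% of all positions did. Reading 1 column at the peaks of another was more telling. The 32 peaks of wild-type replicate 1, 0.12 on average there, read 0.072 in replicate 2 and -0.0043 and 0.014 in eco1 at 20 min. The 47 peaks of replicate 2, 0.13 there, read 0.029 in replicate 1 and -0.050 and -0.040 in eco1.

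Within eco1 at 20 min the 55 peaks of replicate 1 read 0.045 in replicate 2, and 0.0046 and -0.0025 in the wild-type columns. At 40 min they read 0.00094 in eco1 replicate 1, which shares their 0-min library, and 0.062 in replicate 2, which does not. The 51 peaks of replicate 2 read 0.044 in replicate 1. They read 0.085 in eco1 at 40 min replicate 2, here the column with the shared 0-min library, and -0.0089 in replicate 1. At 20 min, then, the peaks of a single column kept on average part of their height in the other replicate of the strain and little or none in the other strain. Troughs of 20 min did so less clearly in wild type. The 33 of replicate 1, -0.10 there, read -0.010 in replicate 2 and -0.0091 and -0.017 in eco1. The 48 of replicate 2, -0.099 there, read -0.024 in replicate 1 and 0.0012 and -0.0099 in eco1. The 54 and 51 troughs of eco1 read -0.061 and -0.076 in its other replicate and -0.0019 to 0.043 in wild type. For peaks at 40 min the pattern of 20 min did not hold. The 43 peaks of eco1 replicate 1 read -0.080 in eco1 replicate 2 and 0.035 and 0.084 in wild type, and the 65 of wild-type replicate 2 read 0.026 in wild-type replicate 1 and 0.040 in eco1 replicate 1. The highest peak by column was SKI6 in wild type at 20 min replicate 1 (0.33) and BRP1, next to PMA1, in replicate 2 (0.41). In both wild-type columns of 40 min it was YGR038C-A (0.26 and 0.55). That position, 569501, lies in a row that was left out, so the height comes from rows on either side.

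The arms of chromosome VII, split between 496502 and 497133 where the last left-arm gene ends and the first right-arm gene starts, were level with each other in wild type. The left arm minus the right arm, as means of row ratios, was -0.0018 and 0.0087 at 20 min and -0.00027 and 0.0025 at 40 min. In eco1 it was 0.019 and 0.019 at 20 min, the left arm higher in both replicates, and -0.018 and 0.013 at 40 min, where the replicates disagreed in sign. The eco1 difference at 20 min did not pass (0.019 ± 0.011, standard error, limma adjusted p = 0.171 over 16 chromosomes), nor did the other 3 groups. The test was passed by 18.8% of chromosomes in wild type at 20 min, 37.5% in wild type at 40 min, 37.5% in eco1 at 20 min and 6.25% in eco1 at 40 min. By size chromosome VII ranked 15, 16, 9 and 16 of the 16 in these groups.

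Between strains the arm difference was larger by 0.015 in eco1 at 20 min (95% interval -0.017 to 0.047, limma adjusted p = 0.639, 0% of chromosomes called). At 40 min it was smaller by 0.0036 (95% interval -0.036 to 0.028, limma adjusted p = 0.815, 6.25% called). Without replicate 1 of eco1 at 40 min the latter was 0.012, and without replicate 2 it was -0.019.

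**Figure D5:**
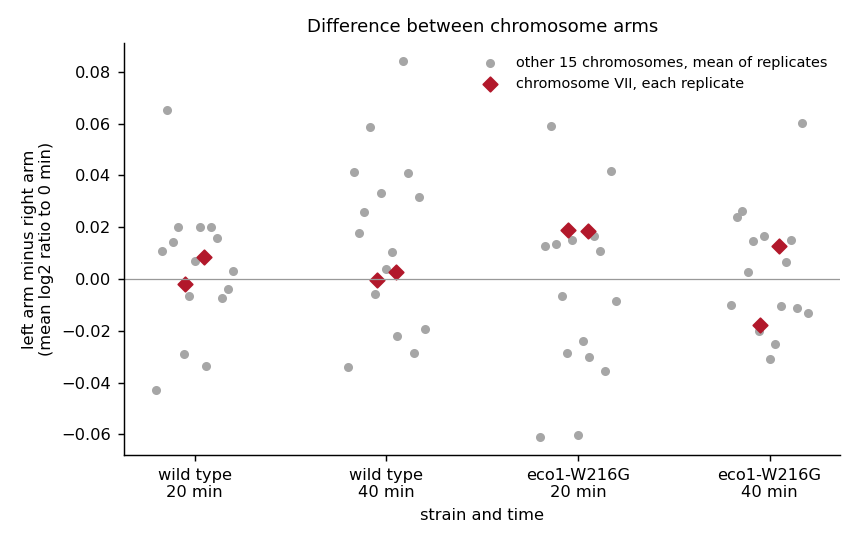
Mean log2 ratio of the left arm minus that of the right arm, by strain and time; diamonds are the 2 replicates of chromosome VII and grey points the replicate means of the other 15 chromosomes. The libraries of chromosome VII lie between -0.018 and 0.019, with both eco1 20-min replicates at 0.019.

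Along the arms the eco1 20-min columns dipped in the first 100 kb right of the centromere. The 87 rows there averaged 0.029 and 0.059 in wild type and -0.054 and -0.022 in eco1 at 20 min, and 0.059 and 0.091 in wild type and 0.019 and -0.014 in eco1 at 40 min. At both times the eco1 columns lay below the wild-type columns, as they also did from 200 kb left of the centromere up to it. Of 11 such segments eco1 lay wholly below in 6 and wholly above in 2 at 20 min, and below in 4 at 40 min. This stretch holds the windows of YGR026W, SNR46, TIM21 and KSS1 and the Ty genes of the rows left out. The other segment with a marked level was the last, from 500 kb right of the centromere to the end of the interior, where the 64 rows averaged 0.0027 and 0.0014 in wild type and -0.022 and 0.0042 in eco1 at 20 min. At 40 min it lay below the median in all 4 columns, at -0.042 and -0.066 in wild type and -0.067 and -0.037 in eco1. These segment means are descriptions with no test.

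Groups of loci on chromosome VII were described in the same way. Rows at a list of genes include those within 2.5 kb on either side of each gene. The 21 rows within 10 kb of the centromere averaged 0.060 and 0.069 in wild type and 0.029 and 0.059 in eco1 at 20 min, above the median in all 4 columns. The 1 window that holds the centromere, that of ERP6, went the other way. Its mean in wild type at 20 min was -0.014, and eco1 read 0.070 higher there. The reference trough at SWC4 (499501) read -0.040 and -0.037 in wild type and -0.058 and -0.046 in eco1 at 20 min. Rows at the 36 tRNA genes, 189 in number, averaged -0.0015 and 0.022 in wild type and -0.041 and -0.028 in eco1 at 20 min. Rows at the 14 ribosomal protein genes, 89 in number, averaged -0.018 and -0.0090 in wild type and -0.065 and -0.077 in eco1 at 20 min. At both lists, as in the rows near the centromere, the eco1 columns lay below the wild-type columns, an ordering met by 31.3% of all windows at 20 min. At 40 min the ribosomal protein rows averaged 0.025 and 0.086 in wild type and 0.022 and -0.086 in eco1, where the replicates oppose each other.

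By windows, 4 of the 25 that hold a tRNA gene were called higher and 1 lower in wild type at 20 min, and 0 of the 13 that hold a ribosomal protein gene, against 10 and 2 of all 101. The median strain difference at 20 min was -0.011 over the tRNA windows and -0.059 over the ribosomal protein windows, against -0.0092 over all 101 windows. The 27 rows in or within 2.5 kb of 5 Ty genes spread widely between replicates. They read -0.051 and 0.067 in wild type and -0.042 and -0.075 in eco1 at 20 min.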

How the data were processed

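Genomic DNA of 12 libraries, 2 for each strain and time, was sequenced after Nextera XT preparation, per the labels' protocols. CASAVA 1.8.2, Bowtie and the build sacCer3 are named, per the submitters' processing notes, without roles or parameters. The authors deposited a single table of 12165 rows with 8 ratio columns in log2 units. Their base, a pseudocount of 1 RPM (scaled reads) and the denominator, the 0-min library of the same strain and replicate, were settled from the values, since the file headers do not name them. The deposited smoothed columns, treated as a score, were not used. Read numbers of the 12 libraries, worked back from these ratios as whole reads, served for depth and for 1 alternative.

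Rows were averaged in 10-kb windows with at least 5 rows, after each chromosome interior had been centred on its own median. Limma 3.58.1 in R 4.3.3 was fitted to 4 groups over 1102 windows (4 residual and 6.9 prior degrees of freedom), and to the differences over time (2 and 5.3), with Benjamini-Hochberg adjustment over all windows and a threshold of 0.05. Peaks and troughs used a 5-kb running mean and a prominence of 0.1, and arms were compared over 16 chromosomes. Tried on simulated data were the fit to 4 groups of windows, the working back of reads and the peak search in a single column, which also returned peaks from noise. The fits of time differences, reference positions, amplitudes and arms were not tried in this way. Numpy 2.4.6, pandas 2.3.3 and scipy 1.17.1 did the rest. Genes and centromeres came from RefSeq's gene table of assembly R64, which holds 590 genes on chromosome VII, and each window carries the gene nearest its centre.

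Members, lists and tests were chosen with earlier results of these data known. Named by rule were all reference peaks, the 10 deepest reference troughs, and the windows past the threshold between strains or over time, or else the 5 largest in each direction with the same sign in both replicates. Windows off the chromosome median, the lead windows of single columns and further troughs were named after their values were seen. Replicate numbers did not pair the strains: the replicate differences of wild type and eco1 correlated at 0.031 at 20 min and -0.43 at 40 min. Those of the 2 wild-type times, which share a 0-min library, correlated at 0.56. Those of the 2 eco1 times, which share theirs in the same way, correlated at -0.060. Alternatives were other window sizes, centrings, filters, peak settings and denominators, an equal SD, a replicate block and each library left out. A genome sequence, promoters and origins were not used here.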

Additional observations from a re-analysis of the deposited data

Results flagged for a closer look

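At 3 named windows both wild-type replicates and both eco1 replicates moved in opposite directions from 20 to 40 min. At TFG2 wild type changed by -0.082 and -0.14 and eco1 by 0.0074 and 0.014, a difference of 0.12 between the mean changes. At GCN1 wild type changed by 0.0099 and 0.035 and eco1 by -0.098 and -0.044, a difference of -0.093. At SPC105 wild type changed by 0.044 and 0.017 and eco1 by -0.082 and -0.035, a difference of -0.089. In limma's strain-by-time contrast, which does not pair the times, none passed after adjustment (adjusted p = 0.999 for each), and the paired difference was not tested. The changes of eco1 at TFG2 are within the counting SD of a window. So are those of wild-type replicate 1 at GCN1 (0.0099) and wild-type replicate 2 at SPC105 (0.017).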

How the results depend on the processing

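Counts of windows called on chromosome VII moved with the processing as follows. In wild type at 20 min 12 became 6 at an adjusted p under 0.01 and 7 in 20-kb windows. In wild type at 40 min 0 became 1 in 20-kb windows, 14 with equal SD, 2 over the wild-type 0-min libraries and 8 without both eco1 40-min columns. In eco1 at 20 min 0 became 1, 6 and 9 in 20-kb windows, with the genome median and without those columns, and in eco1 at 40 min 0 became 2 with the genome median. Between strains at 20 min 0 became 1 with equal SD, 5 with the genome median (all lower) and 11 without those columns. For the change over time in wild type 0 became 2 with the MAD filter, the genome median or mean centring and 4 with equal SD. Reference positions differing at 20 min went from 0 to 1 with equal SD or the genome median and to 6 without the eco1 40-min columns, and amplitudes from 0 to 3. The arm difference of wild type at 40 min turned from 0.0011 to -0.0014 with the interior taken from 50 kb, and the window of RAD54 at 40 min, with a range of -0.0052 (without eco1 40-min replicate 2) to 0.17 (without replicate 1). Leaving out both eco1 40-min columns, the wild-type denominators and leaving out positions near Ty rows were chosen after seeing the data. The causes were not tested.

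With 1 library left out, calls ranged from 1 to 16 in wild type at 20 min, 0 to 8 in wild type at 40 min, 0 to 9 and 0 to 4 in eco1 at 20 and 40 min, 0 to 11 and 0 to 18 between strains at 20 and 40 min, and 0 to 28 and 0 to 19 over time in wild type and eco1. A time difference then rests on 1 residual degree of freedom. Reference positions ranged from 0 to 6 and 0 to 11 at 20 and 40 min, and amplitudes from 0 to 3 and 0 to 10. Arm differences ranged from -0.0018 to 0.0087 and -0.00027 to 0.0025 in wild type at 20 and 40 min, 0.0186 to 0.0190 and -0.018 to 0.013 in eco1, and 0.010 to 0.021 and -0.019 to 0.012 between strains.

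Peaks per column, on average 39.5, 50 (wild type, 20 and 40 min), 53 and 56 (eco1), became 68.5, 84 and 87 with a 3-kb running mean (the fourth within 1.5 times), 21, 24.5, 24 and 25.5 with 9 kb, 65.5, 83.5 and 80 at a prominence of 0.05, and 30, 34.5 and 34.5 at 0.15 in all but wild type at 20 min. Replicate matching at 20 min, 93.8% in wild type and 90.9% in eco1, became 71.9% and 76.4% within 5 kb, 72.7% and 73.5% at a prominence of 0.15, and 66.7% in eco1 with 9 kb. Window SD at 20 min, 0.071 in wild type and 0.059 in eco1, became 0.085 and 0.074 in 5-kb windows, and in eco1 0.043 in 20-kb windows and 0.056 with the MAD filter.

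The replicate block left 11 windows in wild type at 20 min, 0 between strains at either time and the same arm differences (0.0034 in wild type at 20 min), and changed no call beyond that 1 window. The change over time without the replicate pairing, the fit with no replicate block, gave 0 as well. Depth limits a window to about 0.022 to 0.028 of counting SD, which PCR without molecular identifiers may understate.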
